A study of Mus musculus with 4 samples.

Results

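The 10 genes described here encode the NF-kB transcription factor subunits (Nfkb1, Nfkb2, Rel, Rela and Relb), the classical IkB inhibitors (Nfkbia, Nfkbib and Nfkbie), the nuclear IkB protein BCL3 and the ubiquitin-editing enzyme A20 (Tnfaip3). They were taken by symbol from a table of 35275 Ensembl gene IDs, and all 10 were present and were among the 11625 genes that were tested, those whose RPKM (reads scaled by transcript length and library size) averaged 1 or more. The cells were mouse double-negative regulatory T cells (DNT), which carry an αβ T cell receptor but neither CD4 nor CD8. 2 libraries came from DNT of OX40-knockout mice and 2 from DNT of wild-type mice, both of strain C57BL/6. In both groups the cells had been generated from naive CD4 T cells by a conversion protocol and sorted as CD3+ TCRαβ+ cells without NK markers, CD4 or CD8. Neither animal age, nor the deleted part of the OX40 gene, nor whether the libraries of a group stem from separate animals or cultures is given in the sources used here. The p-values therefore cover no more than how far these libraries differ, which may be technical.

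NF-kB proteins bind DNA as dimers. In the canonical route, which T cell receptor and TNF-family signals switch on, the IKK kinase complex marks IkB proteins for destruction and so frees dimers of p50 (made from Nfkb1), RelA and c-Rel to enter the nucleus. In the alternative route, the kinase NIK and IKKα drive the trimming of the Nfkb2 product p100 to p52, which pairs with RelB. OX40, which activated T cells display, belongs to the TNF receptors that costimulate them and is known to feed both routes through TRAF adaptors. Nfkbia, Nfkbie, Tnfaip3, Bcl3, Nfkb2 and Relb are themselves textbook targets of NF-kB, so their transcripts form part of its feedback.

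RefSeq promoters (build GRCm38.p6, each 250 bases before to 50 bases after a transcript start) were on hand for 8 of the 10 genes, with 11 promoters in all. Nfkb1 and Relb had no entry. Shown are those of Bcl3, Nfkbia and Tnfaip3, the genes with the widest log2 range over the libraries, and of Nfkb2, for which both knockout libraries lay above both wild-type ones. They did so for Rel too, whose window is not shown. Both strands were searched. Capitals mark matches to the 10-letter κB consensus or its reverse complement, or to the shorter form GGANNTTCC and its reverse complement GGAANNTCC, which was added after the consensus had been searched. The windows are Bcl3 at chr7:19822706-19823005 (minus strand), Nfkbia at chr12:55492598-55492897 (minus strand), Tnfaip3 at chr10:19015361-19015660 (minus strand) and Nfkb2 at chr19:46304487-46304786 (plus strand), each written 5′ to 3′ on the gene's strand.
Bcl3: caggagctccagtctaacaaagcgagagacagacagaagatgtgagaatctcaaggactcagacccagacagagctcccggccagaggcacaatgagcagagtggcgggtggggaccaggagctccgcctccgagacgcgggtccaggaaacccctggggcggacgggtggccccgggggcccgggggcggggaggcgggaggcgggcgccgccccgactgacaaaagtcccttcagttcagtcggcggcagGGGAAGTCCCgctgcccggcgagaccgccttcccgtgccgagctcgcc
Nfkbia: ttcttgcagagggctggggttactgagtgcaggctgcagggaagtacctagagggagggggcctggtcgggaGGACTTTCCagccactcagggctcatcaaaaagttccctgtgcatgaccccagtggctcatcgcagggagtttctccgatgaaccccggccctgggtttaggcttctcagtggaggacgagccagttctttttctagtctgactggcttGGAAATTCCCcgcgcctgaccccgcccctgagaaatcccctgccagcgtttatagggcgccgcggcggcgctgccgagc
Tnfaip3: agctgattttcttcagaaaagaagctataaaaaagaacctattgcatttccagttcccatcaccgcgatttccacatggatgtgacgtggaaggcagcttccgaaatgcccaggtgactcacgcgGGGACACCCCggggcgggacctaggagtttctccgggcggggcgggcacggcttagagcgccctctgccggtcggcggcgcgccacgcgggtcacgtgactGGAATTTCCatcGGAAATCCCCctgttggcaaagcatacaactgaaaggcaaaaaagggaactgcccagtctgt
Nfkb2: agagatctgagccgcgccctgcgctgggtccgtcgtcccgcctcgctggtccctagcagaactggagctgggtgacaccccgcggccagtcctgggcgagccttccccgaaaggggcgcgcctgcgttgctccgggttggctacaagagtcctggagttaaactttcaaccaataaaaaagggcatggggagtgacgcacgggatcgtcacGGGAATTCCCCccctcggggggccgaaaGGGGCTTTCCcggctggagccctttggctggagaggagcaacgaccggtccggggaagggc

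The Bcl3 window held 1 consensus match, GGGAAGTCCC, whose first base lay 2 bases past the start. Nfkb2 held 3 matches, of which GGGAATTCCC and GGAATTCCCC overlap and began 39 and 38 bases before the start, and GGGGCTTTCC began 11 bases before it. Nfkbia held 1 consensus match, GGAAATTCCC at 29 bases before the start, which contains the shorter form, and a separate match to the shorter form, GGACTTTCC, at 178 bases before it. Tnfaip3 held 2 consensus matches, GGGACACCCC and GGAAATCCCC at 125 and 12 bases before the start, and 1 match to the shorter form, GGAATTTCC at 24 bases before it. Among the windows not shown, Nfkb2 had GGAATGTCCC and GGGACTTTCC, Rel had the overlapping GGGAAATCCC and GGAAATCCCC, and Nfkbie had GGGGGATTCC with the shorter form GGAAGCTCC, while Rela, Nfkbib and the other start of Tnfaip3 had neither form. In all, 8 of the 11 windows, from 6 of the 8 genes, had a consensus match. The Nfkb2 windows not shown overlap and share the same GGGACTTTCC, which counts in each of them. Over all 32851 RefSeq promoters of this length 8.46% held the consensus, 4.26% the shorter form and 10.7% either one. The consensus was commoner in GC-rich windows, at 12.1% of windows at or above the median GC content and 4.70% of those under it. That median was 52.7%, and all 11 windows lay above it except the other start of Tnfaip3, at 47.0%. A match describes letters in a window and is not a measured site of binding.

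The library labelled OX40-knockout 1 stood apart from the other 3. Between the knockout libraries 578 tested genes (4.97%) differed 2-fold or more in RPKM + 1, against 132 (1.14%) between the wild-type libraries. OX40-knockout 1 differed in this way from wild-type 1 and 2 for 289 and 515 genes, and OX40-knockout 2 for 191 and 58 genes. By this count each knockout library was closest to the wild-type library of its own number. Library totals implied by the values lay between 22220888 and 24395743 reads. The 8 T cell markers summed to 2767 and 2527 RPKM in the knockout and 2835 and 2507 RPKM in the wild-type libraries. The 4 markers of NK cells, which the sort was set to leave out, summed to 139 and 337 RPKM in the knockout libraries, against 244 and 359 RPKM in wild-type. Most of that was Klrb1c (42.8 and 159 against 98.5 and 160 RPKM) and Eomes (75.5 and 133 against 114 and 150 RPKM). Klrk1 was at 20.1 and 36.9 RPKM against 31.4 and 41.9 RPKM, and Ncr1 at 0.18 and 7.49 RPKM against 0.41 and 7.93 RPKM. The coreceptor genes, which the sort selected against at the protein level, were also read. Cd8a was at 16.6 and 9.03 RPKM against 10.5 and 10.4 RPKM, Cd8b1 at 4.44 and 2.00 RPKM against 3.37 and 2.49 RPKM, and Cd4 at 10.1 and 2.06 RPKM against 0.82 and 1.97 RPKM. The 5 B cell markers summed to 4.80 and 2.83 RPKM against 3.004 and 2.54 RPKM, mostly Cd79b, with Ms4a1 and Pax5 at 0 in all 4 libraries. The 9 myeloid and dendritic markers summed to 4.03 and 7.98 RPKM against 4.74 and 10.1 RPKM, with Siglech at 0 in all 4. The 4 erythroid markers summed to 5.12 and 2.14 RPKM against 3.58 and 1.12 RPKM. The 3 stromal and epithelial markers summed to 55.7 and 130 RPKM against 47.2 and 94.5 RPKM. Most of that was Pecam1, at 44.2 and 112 RPKM against 30.8 and 76.5 RPKM. The part of these differences in the results was not tested, and in bulk RNA fewer cells of a type and less RNA per cell cannot be told apart. The targeted gene Tnfrsf4 (OX40) was still read in the knockout libraries, at 12.1 and 9.38 RPKM, against 18.2 and 12.3 RPKM in the wild-type libraries (log2 change -0.46, SE 0.23, limma adjusted p = 0.974).

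Among the subunits, Nfkb1, the precursor of p50, was far the most abundant and nearly level between the libraries. It stood at 172 and 153 RPKM in OX40-knockout 1 and 2, against 163 and 153 RPKM in wild-type 1 and 2. The groups overlapped, and its log2 change of 0.039 was smaller than its standard error of 0.11. Rela, which carries the transactivation domain of the classical p50-RelA dimer, was at 50.9 and 37.1 RPKM in the knockout and 38.7 and 39.1 RPKM in the wild-type libraries. OX40-knockout 1 was the highest of the 4 and OX40-knockout 2 the lowest, so the groups overlapped. Rel, encoding the lymphoid subunit c-Rel, was the steadiest of the 10 genes, at 6.78 and 6.85 RPKM in the knockout and 6.6 and 6.39 RPKM in the wild-type libraries. Both knockout values lay above both wild-type values, by a log2 change of 0.062 (SE 0.13). The 95% Poisson interval of wild-type 1 (6.25 to 6.97 RPKM) held both knockout values, and that of wild-type 2 (6.04 to 6.74 RPKM) held neither.

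The alternative-route subunits were intermediate or low in level. Nfkb2, encoding p100 and p52, was at 43.2 and 32.3 RPKM in the knockout libraries, against 31.7 and 30.8 RPKM in the wild-type libraries. Both knockout libraries were above both wild-type libraries, but OX40-knockout 2 lay only just above, with a 95% Poisson interval of 31.0 to 33.7 RPKM that held the value of wild-type 1. The log2 change was 0.25 (SE 0.17). Relb, its usual partner, was at 17.5 and 14.1 RPKM in the knockout and 11.7 and 16.2 RPKM in the wild-type libraries. The lowest value and the second highest were both wild-type, and the log2 change of 0.17 was below its standard error of 0.20. Relb also showed the widest gap of the 5 subunits between wild-type libraries, -0.44 on the log2 scale for wild-type 1 minus wild-type 2, wider than in 93.7% of tested genes.

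As a pool, the subunit transcripts kept much the same make-up. Their RPKM summed to 290 and 243 in the knockout and 251 and 246 in the wild-type libraries. Nfkb1 made up 59.2% and 62.9% of that sum in the knockout and 64.7% and 62.3% in the wild-type libraries. Rela followed with 17.6% and 15.2% against 15.4% and 15.9%. Nfkb2 held 14.9% and 13.3% against 12.6% and 12.5%, with the knockout libraries above. Rel held between 2.34% and 2.82% in every library. The alternative subunits Nfkb2 and Relb together came to 0.265 and 0.235 of the canonical sum of Nfkb1, Rel and Rela in the knockout, against 0.209 and 0.237 in the wild-type libraries. On the log2 scale this ratio averaged -2.00 ± 0.12 in the knockout and -2.17 ± 0.13 in the wild-type libraries (SD, n = 2 each), a difference of 0.17, close to the spread within each group. It was 0.049 after correction for GC content and between 0.075 and 0.26 with 1 library left out. With 2 libraries against 2, an exact permutation test cannot give a p under 0.333, so none is given.

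Nfkbia, encoding IkBα, the fast-cycling inhibitor that newly activated NF-kB rebuilds, had the largest spread among the classical inhibitors. It was at 85.4 and 35.9 RPKM in OX40-knockout 1 and 2, and at 40.2 and 33.0 RPKM in wild-type 1 and 2. OX40-knockout 1 was 2.38-fold above OX40-knockout 2, and OX40-knockout 2 lay between the wild-type libraries. The gap between knockout libraries, 1.23 on the log2 scale, was wider than in 97.0% of tested genes. The groups differed by a log2 change of 0.59 (SE 0.42). Nfkbib, encoding the slower-turning IkBβ, was at 43.4 and 31.7 RPKM in the knockout and 32.0 and 32.3 RPKM in the wild-type libraries. The 3 libraries other than OX40-knockout 1 agreed within counting error. Nfkbie, encoding IkBε, was at 10.9 and 6.55 RPKM in the knockout and 6.35 and 7.45 RPKM in the wild-type libraries, again with OX40-knockout 1 alone on top.

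The 3 inhibitors together summed to 140 and 74.2 RPKM in the knockout libraries, against 78.5 and 72.7 RPKM in the wild-type libraries. Set against the subunit sum, this gave 0.482 and 0.305 inhibitor RPKM per subunit RPKM in the knockout and 0.313 and 0.296 in the wild-type libraries. OX40-knockout 2 thus lay within the wild-type range of a quantity that does not depend on how libraries are scaled to each other. The log2 ratio averaged -1.38 ± 0.47 in the knockout and -1.72 ± 0.05 in the wild-type libraries (SD, n = 2 each), a difference of 0.33 that was 0.0019 without OX40-knockout 1. The share of Nfkbia in the inhibitor sum was 61.1% and 48.4% in the knockout and 51.2% and 45.3% in the wild-type libraries.

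**Figure D1:**
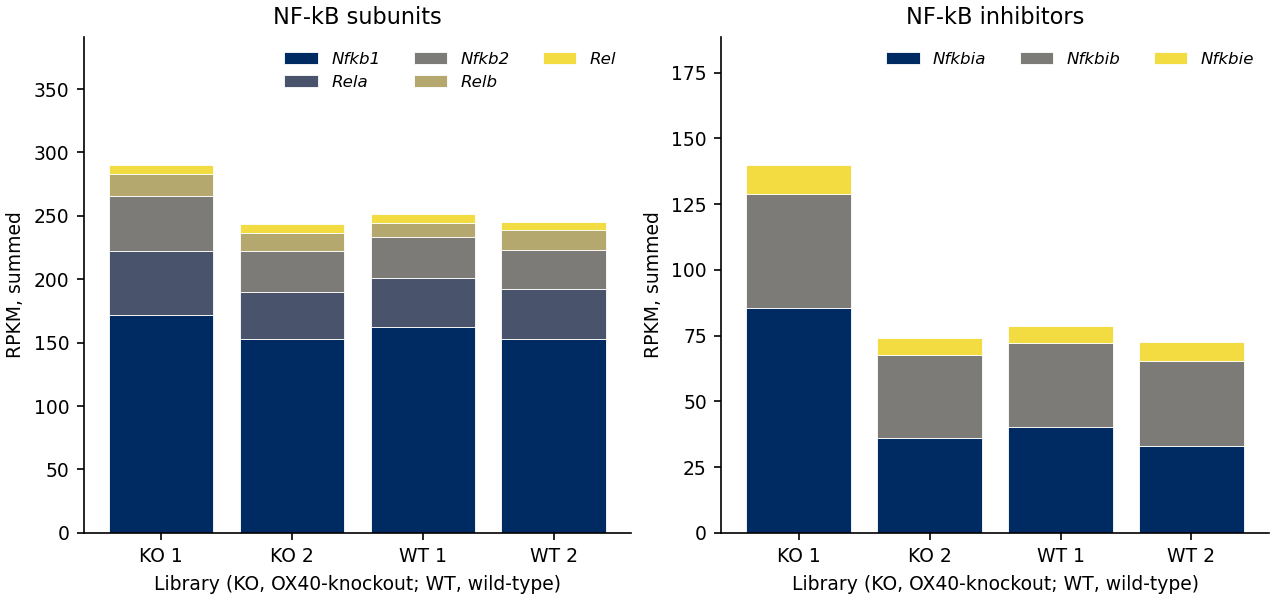
Summed RPKM of the 5 subunit genes (left) and of the 3 classical inhibitor genes (right) in each library, split by gene, with both axes starting at 0. The inhibitor column of OX40-knockout 1 reaches 140 RPKM and the other 3 lie between 72.7 and 78.5 RPKM, while the subunit columns lie between 243 and 290 RPKM.

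Bcl3, a nuclear IkB family member that works with p50 and p52 homodimers as a coactivator or corepressor, had the largest difference between the groups of the 10 genes. Its values were 156 RPKM (95% Poisson interval 149.98 to 162) and 75.7 RPKM (71.6 to 79.9) in OX40-knockout 1 and 2. In wild-type 1 and 2 they were 61.6 RPKM (58.0 to 65.4) and 65.5 RPKM (61.8 to 69.3). Both knockout libraries were thus above both wild-type libraries beyond counting error, although OX40-knockout 1 was 2.06-fold above OX40-knockout 2. The log2 change of 0.77 (SE 0.35) was larger in size than in 99.1% of tested genes, and it did not pass (unadjusted p = 0.082, limma adjusted p = 0.974).

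Tnfaip3, whose product A20 edits ubiquitin chains to shut off signalling to IKK, spread the most over the 4 libraries on the log2(RPKM + 1) scale. It was at 108 and 50.7 RPKM in the knockout and 63.6 and 38.4 RPKM in the wild-type libraries. Wild-type 1 was above OX40-knockout 2, so the groups overlapped. It was also far apart within each group, by 1.08 on the log2 scale between the knockout libraries and 0.71 between the wild-type libraries, the second of these wider than in 97.8% of tested genes. The log2 change of 0.57 (SE 0.43) did not pass.

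None of the 10 genes was called. With limma on log2(RPKM + 1) and Benjamini-Hochberg adjustment over all genes, 0 of the 11625 tested genes had an adjusted p under 0.05 (0%), and every one of the 10 had an adjusted p of 0.974 or 0.975. 162 genes (1.39%) had an unadjusted p under 0.05, of which 64 (0.551%) were higher in the knockout, and none was among the 10. limma-voom on recovered whole reads also called 0 genes, with 129 at an unadjusted p under 0.05. All 10 genes were higher on average in the knockout libraries, with a median log2 change of 0.23, where 43.4% of all tested genes were higher and the median was -0.03. For 3 of the 10 (Nfkb2, Rel and Bcl3) both knockout libraries lay above both wild-type libraries, where 8.66% of tested genes did so, and for none did both lie below, where 17.8% did. In either direction the groups did not overlap for 26.4% of tested genes. For 9 of the 10, all but Rel, OX40-knockout 1 was the highest library, as it was for 36.9% of tested genes.

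The common upward shift went with that library. Without OX40-knockout 1, 5 of the 10 were higher in OX40-knockout 2 than in the wild-type mean, where 41.1% of tested genes were, and the median log2 change was 0.0019. Bcl3 then had a log2 change of 0.25, and Nfkb2, Rel, Relb and Tnfaip3 lay between 0.023 and 0.068. Nfkb1, Rela, Nfkbia, Nfkbib and Nfkbie lay between -0.068 and -0.019. Without OX40-knockout 2 instead, the median was 0.44, and Bcl3 had the lowest adjusted p of the 10, at 0.0526 with limma. Its knockout group is then the 1 library that stood apart, and the spread comes from the wild-type libraries alone, so the fit takes a lone knockout library to vary as they do.

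**Figure D2:**
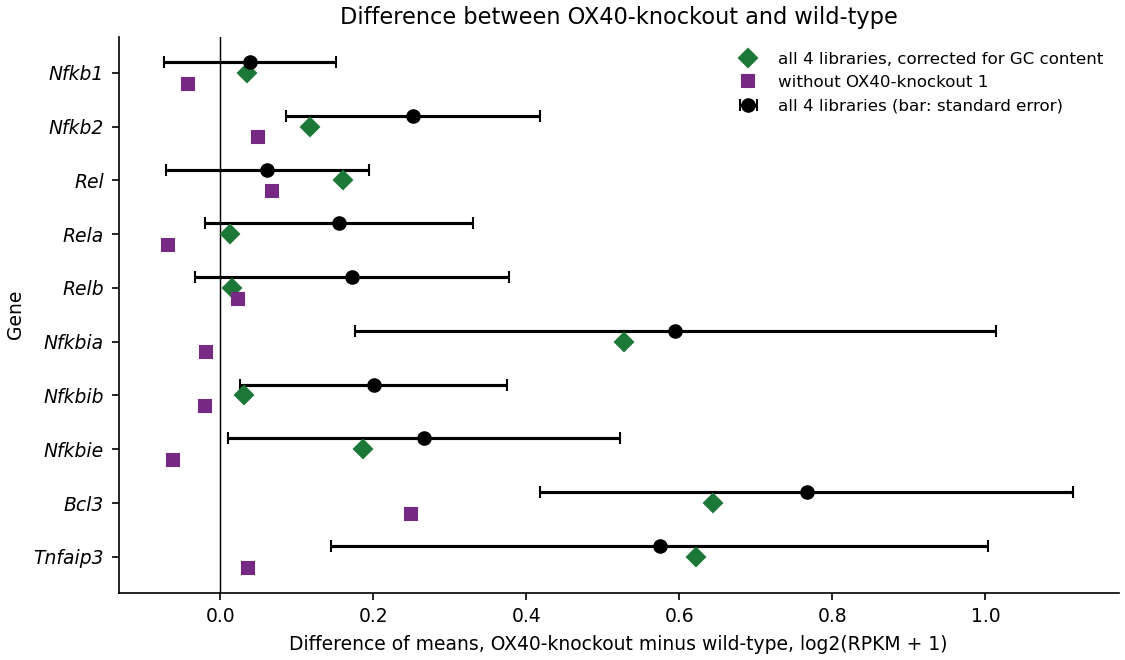
Difference of mean log2(RPKM + 1), OX40-knockout minus wild-type, for each gene with all 4 libraries (circles, bars are standard errors), after correction for GC content (diamonds) and without OX40-knockout 1 (squares). Without that library Bcl3 keeps a difference of 0.25 and the other 9 genes lie between -0.068 and 0.068.

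OX40-knockout 1 also differed from the other libraries by GC content, and most of the 10 genes are GC-rich. Its median deviation from the 4-library mean was -0.18 in the GC-poorest and 0.21 in the GC-richest of 5 equal groups of 2315 genes, ranked by transcript GC content. Of the 10 genes, 5 (Nfkb2, Rela, Relb, Nfkbib and Bcl3) lay in the GC-richest group and 7 in the 2 GC-richest groups. In the GC-richest group, OX40-knockout 1 was the top library for 71.1% of genes, and 76.5% were higher on average in the knockout. Rel, the least GC-rich of the 10 at 42.5%, was before correction the one gene for which that library was not highest. After subtraction of a smooth GC trend within each library, all 10 were still higher on average, where 43.1% of tested genes were, and their median log2 change was 0.14, against 0.23 before correction. Rela (0.01), Relb (0.01) and Nfkbib (0.03) were then nearly level, and Nfkb2 stood at 0.12. Bcl3 stood at 0.64, Nfkbia at 0.53 and Tnfaip3 at 0.62. Nfkbie was at 0.19 and Nfkb1 at 0.03. Rel rose from 0.062 to 0.16. After the correction OX40-knockout 1 was the highest library for Rel too, while for Relb wild-type 2 was then highest. Tnfaip3, with 48.3% GC, is not in the GC-rich groups and deviated by 0.83 in OX40-knockout 1.

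**Figure D3:**
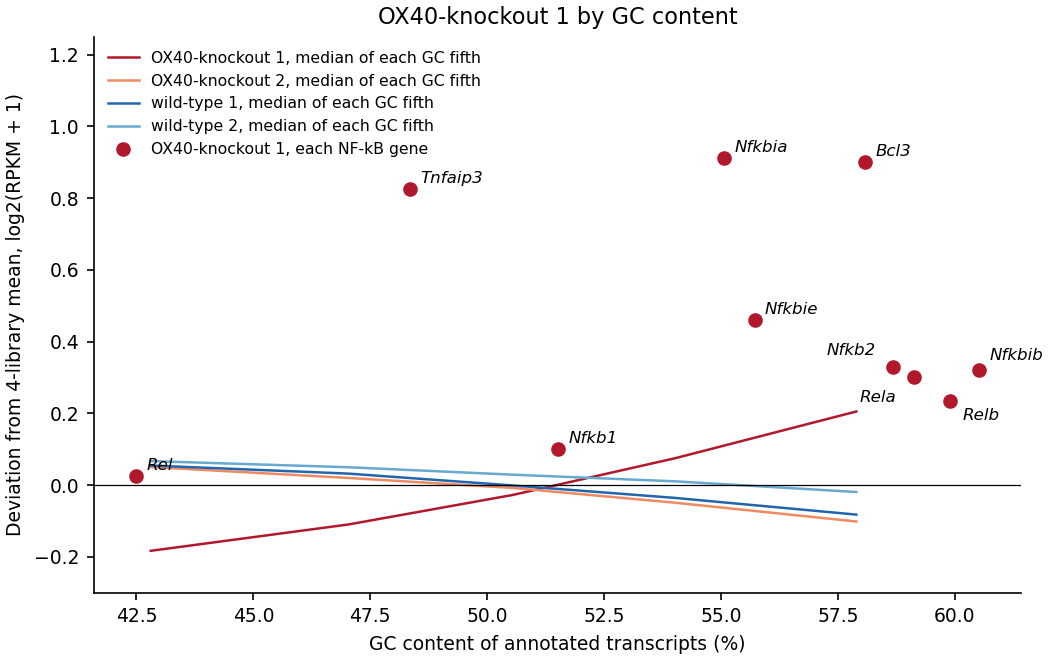
Deviation from the 4-library mean of log2(RPKM + 1) against transcript GC content in percent. Lines are the median over each of 5 equal groups of tested genes for each library, and points are the 10 genes in OX40-knockout 1. Relb, Rela, Nfkb2 and Nfkbib deviate by 0.23 to 0.33, and Nfkbia, Bcl3 and Tnfaip3 lie far above it, at 0.91, 0.90 and 0.83.

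By level over the 4 libraries the order was Nfkb1 (160 ± 8.86 RPKM, SD, n = 4 libraries), Bcl3 (89.7 ± 44.6), Tnfaip3 (65.2 ± 30.4), Nfkbia (48.6 ± 24.7), Rela (41.4 ± 6.35), Nfkbib (34.9 ± 5.70), Nfkb2 (34.5 ± 5.82), Relb (14.9 ± 2.54), Nfkbie (7.81 ± 2.11) and Rel (6.66 ± 0.21). Nfkb1 was above each other gene in every library. Neighbours in this order had overlapping ranges except Nfkb2 over Relb and Relb over Nfkbie. Nfkbia exceeded Rela in 2 libraries and was below it in the other 2. The order depends on the length by which the authors divided. The whole reads behind Bcl3 fit a length of 754 bases or another whole multiple of the same step, and its longest annotated transcript has 1850 bases. If every gene were divided by its longest transcript, Nfkb1 would still be first, at 90.5 RPKM, while Bcl3 would be in place 4, at 36.5 RPKM, and Tnfaip3 in place 5, at 29.2 RPKM. For a single gene, ratios of RPKM between libraries do not depend on that length. The sums, shares and ratios given above that pool several genes do.

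The genes whose profile over the 4 libraries lay closest to that of Tnfaip3 were sought because it had the widest log2 range of the 10. Over 8901 other genes averaging 5 RPKM or more, the closest were Psd, Cysltr1, Dusp1, Zfp36 and Atp9a, at Euclidean distances of 0.15 to 0.20 on the centred log2(RPKM + 1) scale. Zfp36, encoding the mRNA-decay factor tristetraprolin, was at 155 and 73.5 RPKM in the knockout and 80.2 and 49.2 RPKM in the wild-type libraries. Dusp1, a phosphatase that switches off MAP kinases, was at 55.1 and 23.1 RPKM against 29.7 and 16.0 RPKM. Like Psd, Cysltr1 and Atp9a, both share with Tnfaip3 the order OX40-knockout 1, wild-type 1, OX40-knockout 2, wild-type 2. All were picked for closeness to its profile, so the shared order is no separate result. Of the other 9 subunit and inhibitor genes Nfkbia came closest, in place 29 at a distance of 0.33, and Bcl3 was in place 287. With only 4 libraries such likeness is a description.

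The kinases upstream of the subunits differed little between the groups. Of 11 genes of the IKK complex and its kinases 5 were higher and 6 lower on average, with a median log2 change of -0.05, and 0 passed. Ikbkb (IKKβ), the main kinase of the canonical route, was at 46.7 and 45.7 RPKM in the knockout and 46.5 and 49.2 RPKM in the wild-type libraries. Chuk (IKKα) was at 41.8 and 51.1 RPKM against 48.2 and 49.2 RPKM. Tab2, an adaptor of the kinase TAK1, was the most abundant of the list, at 115 and 117 RPKM in the knockout and 128 and 129 RPKM in the wild-type libraries. Map3k7, encoding TAK1 itself, was at 30.5 and 31.8 RPKM against 34.3 and 34.9 RPKM, and the IKK-related kinase gene Tbk1 at 21.2 and 22.6 RPKM against 23.8 and 25.4 RPKM. Tab2, Map3k7 and Tbk1 had both knockout values under both wild-type values, with log2 changes between -0.16 and -0.14 that did not pass, where 17.8% of tested genes lay below in that way. Tab2 lies in the GC-poorest group and Map3k7 and Tbk1 in the next, where 681 and 615 of 2315 genes lay below. After the GC correction their log2 changes were -0.06, -0.07 and -0.10.

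The adaptors that link TNF receptors such as OX40 to these kinases also differed little. Of 8 genes 5 were higher and 3 lower, with a median of 0.0058, and 0 passed. Traf1 was at 96.3 and 85.8 RPKM in the knockout and 92.8 and 95.9 RPKM in the wild-type libraries. Birc3, a ubiquitin ligase that holds NIK in check together with Traf2 and Traf3, was at 69.3 and 63.6 RPKM against 65.2 and 67.1 RPKM. Tradd, an adaptor of TNF receptor 1, was at 58.6 and 50.7 RPKM against 54.5 and 53.9 RPKM. Traf3, the brake on NIK, was at 15.3 and 11.4 RPKM against 10.9 and 11.9 RPKM, and the groups overlapped. Traf6 was at 35.6 and 30.7 RPKM against 32.2 and 28.8 RPKM. Traf5, an OX40 adaptor, was low, at 4.56 and 4.06 RPKM against 4.28 and 5.11 RPKM.

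Other brakes on NF-kB were mixed. Of 17 listed genes 16 were tested (Tnip3 stayed at or below 0.372 RPKM), 10 were higher and 6 lower, the median was 0.02 and 0 passed. Zc3h12a, encoding the RNase Regnase-1, was at 28.1 and 18.9 RPKM in the knockout and 16.0 and 16.2 RPKM in the wild-type libraries. It alone of the list had both knockout values above both wild-type values (Zc3h12a log2 change 0.49, SE 0.21, unadjusted p = 0.0682, limma adjusted p = 0.974). Cyld, Otud7b and Commd1 had both below. Of all tested genes 8.66% lay above and 17.8% lay below in this way, so these counts do not set the list apart. Nfkbiz, an inducible nuclear IkB protein like BCL3, was at 40.5 and 23.6 RPKM in the knockout and 27.3 and 19.0 RPKM in the wild-type libraries, in the same library order as Tnfaip3. Tax1bp1, which brings A20 to its substrates, was at 160 and 187 RPKM against 170 and 169 RPKM. The ligase gene Itch was at 57.1 and 59.8 RPKM against 61.3 and 56.4 RPKM. Pdlim2, which promotes removal of nuclear RelA, was at 85.9 and 63.0 RPKM against 68.7 and 64.6 RPKM, and Commd1, another factor of RelA turnover, at 2.64 and 3.47 RPKM against 3.78 and 3.48 RPKM.

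Genes known as NF-kB targets outside the 10, Traf1 and Birc3 included, had 13 of 18 tested members higher (Cd83 was too low to test), with a median of 0.22, and 0 passed. Over all tested genes 43.4% were higher. OX40-knockout 1 was the highest library for 13 of the 18, as it was for 36.9% of tested genes. Without that library the median of the list was -0.04, and with all libraries and the GC correction the median was 0.11. The direction also divided within the list. Il2ra, the IL-2 receptor alpha chain, was at 331 and 260 RPKM in the knockout, against 249 and 208 RPKM in wild-type (log2 change 0.36, SE 0.17). Ier3, an early response gene, was at 44.2 and 35.4 RPKM against 30.7 and 30.9 RPKM (0.35, SE 0.14). Bcl2l1, encoding the survival protein BCL-xL, lay the other way, at 50.6 and 59.9 RPKM in the knockout and 70.3 and 69.2 RPKM in the wild-type libraries (-0.34, SE 0.12). It was the 1 gene of the list with an unadjusted p under 0.05 (0.0435, limma adjusted p = 0.974). Irf1, an interferon-response factor, was at 299 and 126 RPKM against 188 and 126 RPKM, and Tnfrsf9 (4-1BB) was the most abundant, at 1100.5 and 1333 RPKM against 1259 and 1188 RPKM.

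**Figure D4:**
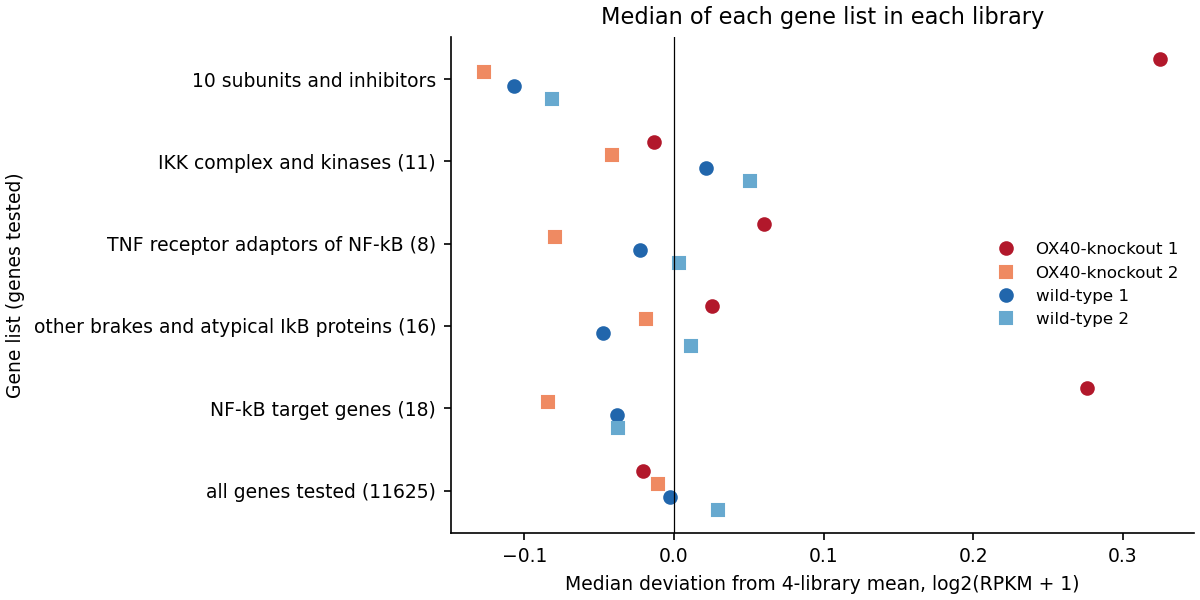
Median over each gene list of the deviation from the 4-library mean of log2(RPKM + 1), 1 point per library, with the number of genes tested in brackets. OX40-knockout 1 stands at 0.32 for the 10 subunits and inhibitors and at 0.28 for the target genes, and for the kinases, adaptors and other brakes all 4 libraries lie between -0.079 and 0.060.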

How the data were processed

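RNA-seq of 4 libraries, 2 per genotype, was used. Per the labels' protocols, DNT were sorted, lysed in Trizol and made into TruSeq libraries, and Bowtie 0.12.2 and build mm8 come from the submitters' processing notes. How reads were counted, with which annotation, and how strand and multi-mapping reads were handled was not given in the sources used here. The authors deposited 1 table of RPKM values whose header names no unit. In genes with 1 annotated transcript between 86.0% and 86.6% of low values were whole reads within 0.02 read, which gave the library totals. Whole reads came from ratios between libraries for 99.9% of genes above 0 and may be off by a whole factor, so Poisson intervals (counting error only, 95%) are approximate.

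Symbols, lengths and GC content came from GENCODE vM21 (GRCm38), and no gene coordinates are given because the notes name mm8. Promoters are RefSeq's (GRCm38.p6). log2(RPKM + 1) was fitted with limma 3.58.1 (R 4.3.3, trended empirical Bayes, two-sided) without a block over genes averaging 1 RPKM or more. The fit was also run on simulated reads that held no outlying library and no GC trend. That run therefore cannot show how the fit behaves on libraries like these. Python 3.11.15 was used for tables and figures. A fold on log2(RPKM + 1) understates change in low genes. Members and gene lists were chosen with earlier results of these data known. Besides the 10 genes and Tnfrsf4, the text names the 3 most abundant genes and the 3 of lowest p in each list (1 further list is not reported here), and the 5 profiles nearest the member of widest range. Tnip3, Cd83, Cyld, Otud7b and the single markers were named after their values were seen. Alternatives were another pseudocount (0.1), no filter, quantile and median-of-ratios scaling, GC correction, a replicate block, limma-voom on recovered reads, and each library left out.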

Additional observations from a re-analysis of the deposited data

How the results depend on the processing

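No gene of the 10 was called by limma under any of the 12 alternatives, and the lowest adjusted p of any was 0.0526 (Bcl3 without OX40-knockout 2). Under the 8 alternatives that keep all libraries, every one of the 10 stayed higher in the knockout. Adding the replicate block or dropping the filter cannot alter a gene's log2 change in this design, so those settings are no check of direction. Leaving out 1 library each, the log2 change ranged from -0.042 to 0.12 for Nfkb1, -0.068 to 0.38 for Rela, -0.047 to 0.39 for Relb, -0.019 to 1.21 for Nfkbia, -0.020 to 0.42 for Nfkbib, -0.062 to 0.59 for Nfkbie, 0.25 to 1.28 for Bcl3, 0.036 to 1.11 for Tnfaip3, 0.049 to 0.45 for Nfkb2 and 0.041 to 0.082 for Rel, and the median of the 10 from 0.0019 to 0.44. The negative values of Rela, Nfkbia, Nfkbib and Nfkbie arose without OX40-knockout 1, that of Relb without wild-type 1, and those of Nfkb1 without OX40-knockout 1 or wild-type 2 (-0.0048). The log2 ratio of inhibitors to subunits differed by 0.33 between the groups and by 0.0019 to 0.66 with 1 library left out. Without Nfkbia on top that ratio differed by 0.13.

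Over all genes limma called 0 as reported, 1 with quantile normalization and 0 to 1 with 1 library left out. The labels do not say that replicate numbers pair libraries; same-numbered libraries deviated together with r = 0.47 across genes. With the number as a block limma called 5 genes (Gm28438, Gm47283, Dynlt1b, Tmem181b-ps and Wdfy1), and with the GC correction and the block 1 (Gm28438), none of them among the 10 and all named after their values were seen. With the block, Tnfaip3, Bcl3 and Nfkbia had a limma adjusted p of 0.995 and unadjusted values of 0.0065, 0.0147 and 0.0287. With the GC correction and the block their limma adjusted p was 0.991 and the unadjusted values were 0.0076, 0.0288 and 0.049. Under that setting 419 tested genes had an unadjusted p under 0.05. Genes at an unadjusted p under 0.05 numbered 162 as reported, 373 with the block, 603 with no filter, 524 without OX40-knockout 1, 3832 without OX40-knockout 2, 77 without wild-type 1 and 76 without wild-type 2. Leaving out a library leaves 1 in its group, which is taken to vary like the other group. Each gene had 357 to 8937 recovered reads per library, at which the knockout libraries differed beyond counting error for 9 of the 10 genes and the wild-type libraries for 4. The share over all tested genes was not counted, so these counts do not set the 10 apart. Over all tested genes the chi-square per degree of freedom was 88.5 between the knockout and 15.2 between the wild-type libraries. Counting error alone would give about 1.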
